A study of Mus musculus with 6 samples.

Results

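The genes of glycolysis and of the response to low oxygen were followed in the mouse macrophage line RAW264.7, without and with titanium (Ti) particles. The set holds 38 genes, taken by name from a list of the pathway, with earlier results of these data known. They are 4 glucose and lactate transporters, 21 enzymes, 4 regulators of hypoxia-inducible factor (HIF) and 9 HIF targets. Of 55536 annotated genes, 15376 had enough counts to be tested, among them 35 of the 38 members. Ldhb, Egln3 and P4ha2 were left out by the filter on low counts.

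Total RNA was sequenced from 3 control libraries, whose cells received PBS, and from 3 Ti libraries, whose cells received Ti particles. Both groups were the same unmodified line, labelled with C57BL/6 as background strain, and the sources used here do not give the dose, particle size or time of exposure. Nothing in the labels says that the libraries came from separate cultures, so every p-value measures only the spread between these libraries, which may be technical. Libraries are named below by group and by the replicate number in the labels.

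In glycolysis, glucose enters the cell through facilitative transporters, is phosphorylated and split, and yields ATP and pyruvate. Macrophages activated by inflammatory stimuli are known to depend strongly on this pathway and to export lactate. HIF-1 is a transcription factor whose alpha subunit is hydroxylated by oxygen-dependent prolyl hydroxylases and then degraded by way of the VHL protein. When oxygen is low, the subunit persists and the factor binds DNA at a short core motif near many glycolytic genes.

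The deposited values were estimated counts per transcript, which were rescaled for genomic span and summed per gene. Rescaled totals ran from 37686020 to 60242937 per library, and 3 counts corresponded to 0.0498 to 0.0796 CPM (gene counts scaled to one common library total). Levels below are CPM unless stated, and fold changes are log2 of Ti over control with a standard error (SE) derived from the test statistic of the fit. The macrophage label was checked with 8 marker genes. Their summed level was 5471 to 7266 CPM in the control libraries and 6682 to 8567 CPM in the Ti libraries. The defining genes of fibroblasts, epithelial cells and B cells were at 3 counts or fewer in every library, as were 3 of 4 T cell markers and 1 of 3 endothelial markers. Summed levels of these 5 lists were at most 0.458 CPM in any library. In such bulk samples, fewer cells of a kind and less RNA per cell cannot be told apart.

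The libraries numbered 3 stood apart in this pathway, in the control and in the Ti group alike. In 24 of 35 tested members (68.6%), the library numbered 3 was the highest of its group in both groups, against 21.2% of all genes tested. The pattern held for 15 of 20 tested enzymes, 3 of 4 transporters, 5 of 8 tested HIF targets and 1 of 3 tested HIF regulators. In the median member, the level in the library numbered 3 exceeded the mean of the other two by 0.48 on the log2 scale in the control group and by 0.48 in the Ti group. Over all genes these medians were 0.01 and -0.01. The reverse, with the library numbered 3 lowest in both groups, was found for 2 members, Slc16a1 and Aldoc, against 19.6% of all genes.

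**Figure D1:**
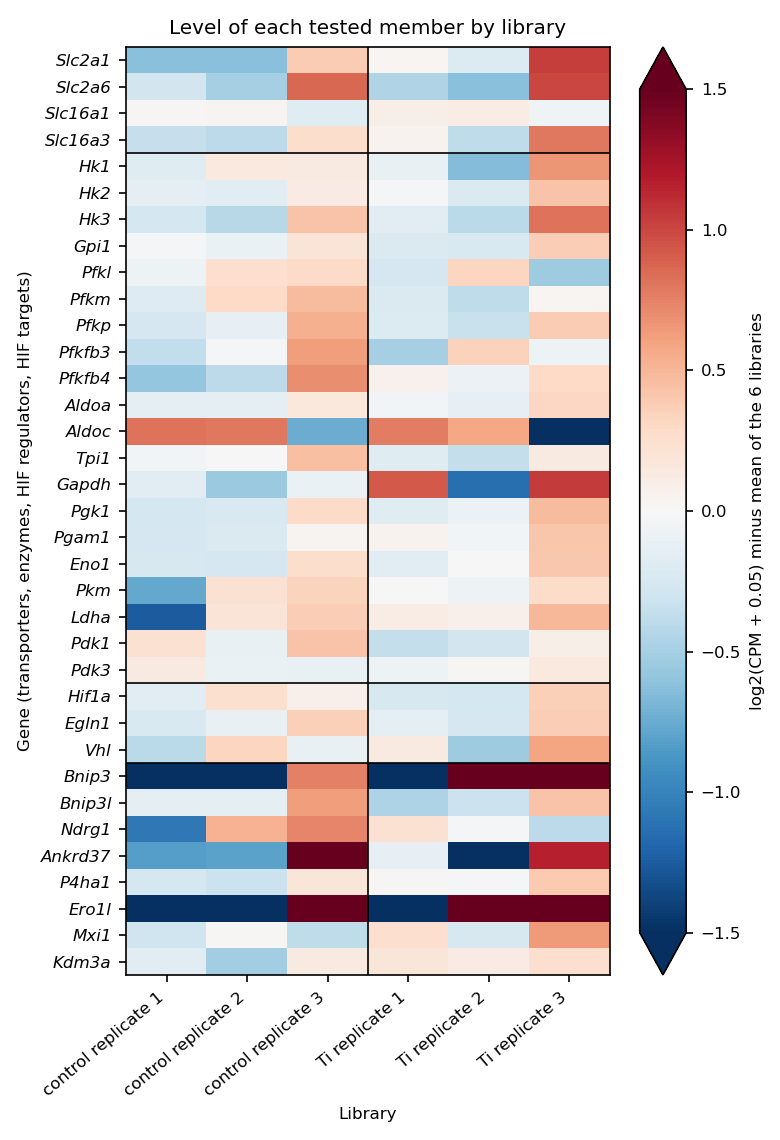
Level of each tested member in each library as log2 CPM minus the member's mean over the 6 libraries (colour, clipped at 1.5 in either direction), with genes in rows grouped by role and libraries in columns. The columns of the libraries numbered 3 are the warmest of their group for 24 of 35 members, and no row separates the control from the Ti columns.

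The same count was made in lists of related genes that hold no member. Among 30 further HIF targets, 26 were tested, and 14 of these (53.8%) were highest in the library numbered 3 of both groups, while 2 of them, Tfrc and Angptl4, were lowest in both. Vegfa and Adm are named here after their values were seen. Vegfa, the main angiogenic growth factor, was at 3.95, 5.01 and 17.3 CPM in control libraries 1 to 3 and at 6.67, 5.14 and 22.8 CPM in Ti libraries 1 to 3. Adm, which encodes the vasodilator adrenomedullin, was at 0.358, 0.349 and 8.17 CPM in the control libraries and at 0.0215, 0.643 and 13.4 CPM in the Ti libraries. The count was 6 of 11 tested genes of pyruvate entry and fate (54.5%) and 5 of 13 other isoforms of glycolysis (38.5%). It was 1 of 7 genes of the pentose phosphate pathway and 0 of 7 further components of the HIF pathway. Differences between these lists were not tested. The summed macrophage markers were also highest in the libraries numbered 3, at 7266 CPM in control 3 and 8567 CPM in Ti 3. The part of cell state, culture or library preparation in this order was not tested.

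Ti particles were then compared with PBS. Between these groups no member passed the test: edgeR's quasi-likelihood test called 0 of 35 members at an adjusted p of 0.05, and the lowest adjusted p was 0.816. In the whole table edgeR called 0.026% of genes. At an unadjusted p under 0.05, edgeR gave 0 members and 6.76% of all genes. At an adjusted p of 0.05, DESeq2 called 0 members and 1.9% of all genes. At an unadjusted p under 0.05 it listed 1 member, Bnip3, whose difference was carried mostly by the library Ti 2. The share of all genes that DESeq2 lists at that unadjusted p was not counted, so this listing has no background to be set against. In 0 of 35 members did the 3 Ti libraries lie wholly above or wholly below the 3 control libraries, whereas 6.63% of all genes had Ti wholly above, 6.71% wholly below and 13.3% either. A p that misses the threshold does not show that levels were the same, and the intervals of several members were wide.

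The fold changes themselves lay mostly close to 0. They were positive in 22 members and negative in 13 (62.9% positive, against 50.9% of all genes). The median log2 fold change was 0.08 over the 35 members and 0.0053 over all genes tested. By role, the median was 0.22 for the transporters, 0.06 for the enzymes, -0.0056 for the HIF regulators and 0.31 for the HIF targets. Without both libraries numbered 3 these medians were 0.15, 0.05, -0.16 and 0.24.

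**Figure D2:**
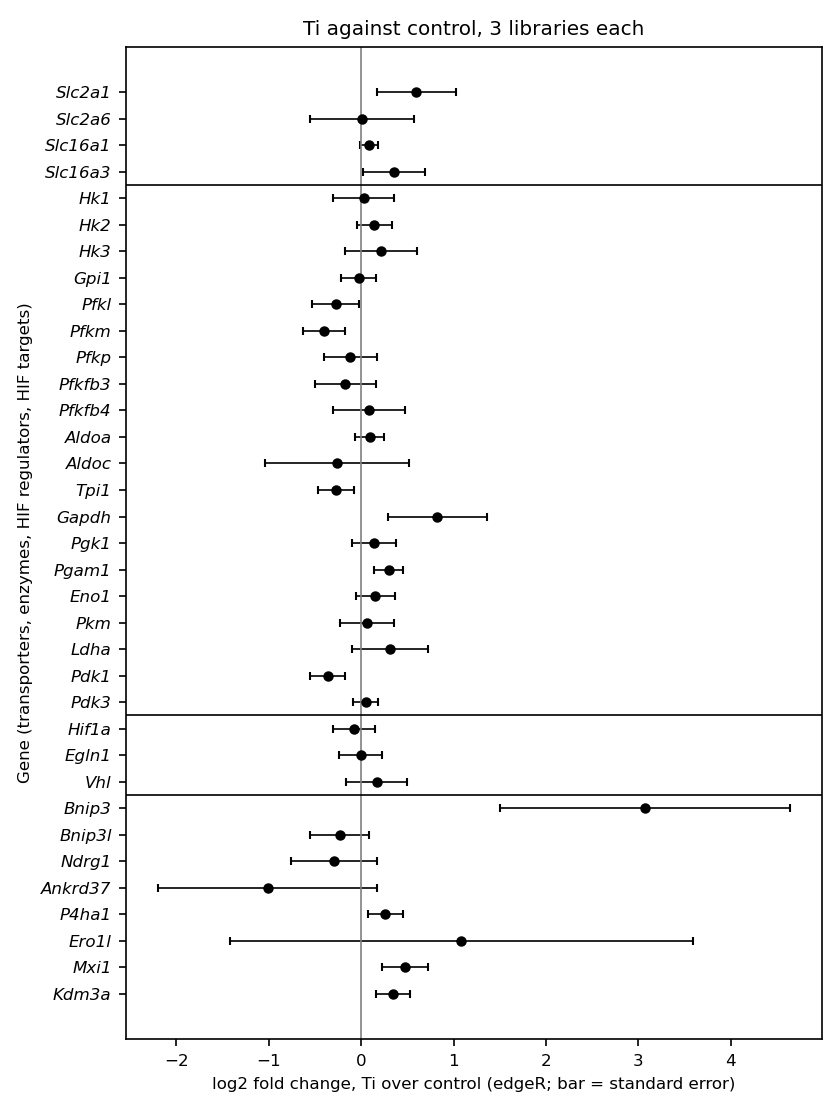
Log2 fold change of Ti over control for the 35 tested members (points) with the standard error derived from edgeR's test statistic (bars), ordered by role and separated by lines. Most points lie within 0.5 of the line at 0, and the widest bars belong to Ero1l, Bnip3 and Ankrd37.

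Among the transporters, Slc2a1 had the largest fold change. Slc2a1 encodes GLUT1, the main glucose carrier of macrophages, and lies on the plus strand of chromosome 4 at 119108711 to 119137983 of GRCm38. Its level was 115, 115 and 232 CPM in control libraries 1 to 3 and 181, 154 and 366 CPM in Ti libraries 1 to 3. Ti 1 and Ti 2 exceeded control 1 and control 2 but not control 3, so the groups overlapped. The log2 fold change was 0.60 ± 0.43 (SE), and its adjusted p by edgeR was 0.884. It was 0.12 without Ti 3 and 1.02 without control 3.

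Slc16a3 encodes MCT4, the low-affinity carrier that exports lactate. Its level was 252, 244 and 384 CPM in the control libraries and 330, 246 and 552 CPM in the Ti libraries, with a log2 fold change of 0.36 ± 0.34. Ti 1 and Ti 2 lay within the control range and Ti 3 above it. Slc16a1, which encodes the lactate and pyruvate carrier MCT1, was steadier, at 482, 490 and 421 CPM against 506, 517 and 456 CPM, a log2 fold change of 0.09 ± 0.10. Its library numbered 3 was the lowest of each group. Slc2a6, a glucose carrier of the lysosomal membrane, was at 34.2, 29.4 and 75.2 CPM in the control libraries and at 30.3, 26.8 and 82.9 CPM in the Ti libraries. Both libraries numbered 3 were more than 2 times as high as the others, and the fold change between the groups was 0.01 ± 0.56.

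Hexokinases trap glucose in the cell as glucose 6-phosphate, and per length Hk1 and Hk2 stood above Hk3. Hk2, the inducible form, lies on chromosome 6 at 82725025 to 82774454 (minus strand). It was at 257, 256 and 310 CPM in the control libraries and at 281, 244 and 383 CPM in the Ti libraries. The log2 fold change was 0.14 ± 0.19, and only Ti 3 exceeded all control libraries. Hk1, the housekeeping form, was at 200, 249 and 249 CPM in the control libraries and ranged from 144 CPM in Ti 2 to 358 CPM in Ti 3, and the log2 fold change was 0.03 ± 0.33. Hk3, a form found in myeloid cells, was at 33.2, 29.9 and 53.7 CPM against 35.3, 30.2 and 70.1 CPM, with a log2 fold change of 0.21 ± 0.39. Gpi1, the isomerase of the next step, was at 536 to 656 CPM in the control libraries and at 492 to 742 CPM in the Ti libraries, with a log2 fold change of -0.03 ± 0.19.

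Of the 3 phosphofructokinase subunits, which catalyse the committed step, the platelet form Pfkp was the most abundant. Pfkp was at 114, 126 and 197 CPM in the control libraries and at 118, 108 and 178 CPM in the Ti libraries, a log2 fold change of -0.11 ± 0.28 (-0.30 with coding transcripts alone). The liver form Pfkl was at 21.3 to 27.4 CPM and 15.5 to 28.2 CPM in the same order of groups (-0.27 ± 0.25, and -0.030 with coding transcripts alone). The muscle form Pfkm was at 10.4, 14.7 and 16.5 CPM against 10.2, 9.11 and 12.1 CPM. Its log2 fold change, -0.40 ± 0.23, was the most negative among the enzymes, yet Ti 3 lay above control 1 and the adjusted p by edgeR was 0.827. Pfkfb3 and Pfkfb4 make fructose 2,6-bisphosphate, the activator of phosphofructokinase. Pfkfb3 lay at 14.3, 18.0 and 28.3 CPM and at 13.0, 23.4 and 17.5 CPM, a log2 fold change of -0.17 ± 0.33. Pfkfb4 did not exceed 4.77 CPM in any library and had 0.08 ± 0.39. With coding transcripts alone these were 0.21 and 0.53.

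Downstream, Aldoa, the aldolase that splits the sugar, was at 1154, 1151 and 1429 CPM in the control libraries and at 1237, 1167 and 1579 CPM in the Ti libraries. Its near relative Aldoc went the other way with library number, at 20.3, 19.9 and 6.88 CPM and at 19.7, 17.2 and 2.45 CPM. The libraries numbered 3 were thus the highest for Aldoa and the lowest for Aldoc in both groups. Between the groups, Aldoa differed by 0.09 ± 0.16 and Aldoc by -0.26 ± 0.78 on the log2 scale. Tpi1, which interconverts the triose phosphates, was at 412, 422 and 584 CPM against 374, 333 and 468 CPM, a log2 fold change of -0.27 ± 0.19. With coding transcripts alone it was -0.90. Pgk1, the first enzyme to yield ATP, was at 712, 730 and 1042 CPM in the control libraries and at 751, 801 and 1185 CPM in the Ti libraries, a log2 fold change of 0.14 ± 0.23 with overlapping groups.

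Pgam1, the phosphoglycerate mutase, was at 531, 545 and 649 CPM in the control libraries and at 655, 617 and 847 CPM in the Ti libraries. Ti 1 and Ti 3 lay above all control libraries and Ti 2 lay below control 3. The log2 fold change was 0.30 ± 0.15, with an adjusted p of 0.816 by edgeR. Eno1, the enolase, was at 1058, 1056 and 1500 CPM against 1115, 1254 and 1656 CPM, with overlapping groups and a log2 fold change of 0.16 ± 0.21. Eno1b, a near-identical copy of Eno1, was at 642 to 884 CPM in the control libraries and at 670 to 925 CPM in the Ti libraries, and reads may be split between the copies.

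Pkm, pyruvate kinase, lies on the plus strand of chromosome 9 at 59656368 to 59679375. It was at 3451, 6909 and 7445 CPM in control libraries 1 to 3 and at 5866, 5589 and 7145 CPM in Ti libraries 1 to 3. Control 1 was lower than every other library, and the log2 fold change was 0.06 ± 0.29. Ldha, which reduces pyruvate to lactate and lies on the plus strand of chromosome 7 at 46841475 to 46855627, was low in the same library. Its level was 486, 1322 and 1486 CPM in the control libraries and 1245, 1218 and 1627 CPM in the Ti libraries. The log2 fold change of Ldha was 0.31 ± 0.41, and it was -0.04 without control 1. Ldhb, the form that favours the reverse reaction, was listed at 0 in all 6 libraries.

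Pdk1 encodes a kinase that keeps pyruvate out of the mitochondrial citrate cycle. Its level was 85.3, 67.7 and 98.0 CPM in the control libraries and 57.1, 60.3 and 77.8 CPM in the Ti libraries. Ti 1 and Ti 2 lay below all control libraries and Ti 3 lay inside their range. The log2 fold change was -0.36 ± 0.19, with an adjusted p of 0.816 by edgeR, and it was -0.038 with coding transcripts alone. Pdk3, a related kinase, was at 29.3 to 34.6 CPM in the control libraries and at 29.9 to 34.9 CPM in the Ti libraries, with a log2 fold change of 0.05 ± 0.13.

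Levels of different genes can be compared only per length, for which TPM (values divided by exon length and scaled to one common total per library) over all 6 libraries were used. Pkm had the highest mean, 3492 TPM, with a range of 1982 to 4692 TPM. Aldoa followed at 1107 TPM (883 to 1413), Ldha at 948 TPM (493 to 1287) and Eno1 at 831 TPM (654 to 1140). Aldoa was above Ldha and above Eno1 in each of the 6 libraries, whereas Ldha was below Eno1 in control 1 and above it in the other 5. Eno1b was at 436 to 705 TPM, and reads may be split between it and Eno1, so the place of Eno1 in this order is open. The Ldha value of control 1 came from other transcripts than elsewhere, as described below. Pgk1 was at 612 TPM, Pgam1 at 465 TPM, Tpi1 at 362 TPM and Gpi1 at 275 TPM. The hexokinases and Slc2a1 stood lower, at 72.3 TPM for Hk1, 67.0 TPM for Hk2 and 82.0 TPM for Slc2a1. Hif1a was at 8.86 TPM.

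**Figure D3:**
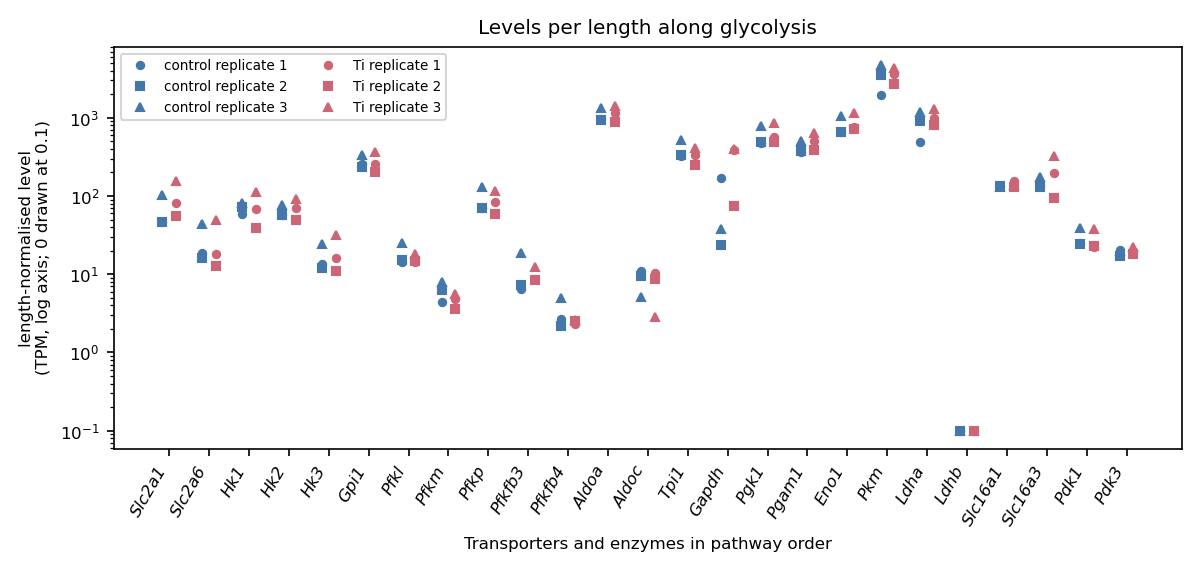
Length-normalised level (TPM, log axis) of the transporters and enzymes in pathway order, with one point per library, control in blue and Ti in red, and the marker shape giving the replicate number. Pkm is the highest, with a range of 1982 to 4692 TPM, Ldhb is at 0 (drawn at 0.1), and the triangles of the libraries numbered 3 mostly top their group.

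The HIF regulators showed no separation of the groups. Hif1a, the oxygen-regulated alpha subunit, lies on the plus strand of chromosome 12 at 73901375 to 73947530. It was at 14.3, 18.8 and 16.8 CPM in the control libraries and at 13.6, 13.3 and 20.4 CPM in the Ti libraries. The log2 fold change was -0.08 ± 0.23, with Ti 1 and Ti 2 below the control range and Ti 3 above it. Egln1, which encodes the main prolyl hydroxylase PHD2, was at 35.5, 38.5 and 53.3 CPM against 37.7, 35.1 and 53.9 CPM, and its log2 fold change was -0.0056 ± 0.24. Vhl, the recognition subunit of the ubiquitin ligase, was at 14.3 to 23.5 CPM and 13.1 to 28.5 CPM, with a log2 fold change of 0.17 ± 0.33. Egln3, which encodes PHD3 and is itself a HIF target, had 19 counts in control 3 and 13 counts in Ti 3 and was listed at 0 in the other 4 libraries.

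Some HIF targets were estimated at almost nothing in part of the libraries. Ero1l, the endoplasmic reticulum oxidase that RefSeq names Ero1a, was at 0.188, 1.17 and 163 CPM in control libraries 1 to 3 and at 0.107, 119 and 230 CPM in Ti libraries 1 to 3. Its estimate was high in 3 libraries, control 3, Ti 2 and Ti 3, and close to absent in the other 3. Nearly all of the high values came from a single transcript, which was not detected in the other 3 libraries. Such an absence can be a failed assignment, so the split describes the estimates. The log2 fold change of Ero1l was 1.09 ± 2.5, and it was 7.48 without control 3 and 0.12 without Ti 3. Bnip3, a mitophagy receptor, was at 0.985, 0.723 and 5.44 CPM against 0.536, 50.3 and 9.23 CPM. A single library, Ti 2, carried most of this, and the log2 fold change was 3.07 ± 1.57 with it and 1.04 without it. Ankrd37, an ankyrin-repeat gene induced by HIF, was at 0.860, 0.873 and 9.20 CPM against 1.44, 0.375 and 3.58 CPM. Its log2 fold change was -1.01 ± 1.19, and it was 1.06 without control 3.

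Other targets were measured more steadily. P4ha1, a collagen prolyl hydroxylase subunit, was at 158, 152 and 217 CPM in the control libraries and at 193, 188 and 251 CPM in the Ti libraries. Its log2 fold change was 0.26 ± 0.19, and Ti 1 and Ti 2 lay above control 1 and control 2 but below control 3. Mxi1, an antagonist of MYC, was at 34.9, 43.6 and 33.0 CPM against 51.3, 36.4 and 67.1 CPM, with a log2 fold change of 0.47 ± 0.25. Ti 2 lay inside the control range and Ti 1 and Ti 3 above it. Kdm3a, a histone demethylase, was at 31.5, 24.8 and 38.8 CPM against 40.1, 38.6 and 42.4 CPM. Only Ti 2 lay inside the control range for Kdm3a, by a margin of less than 1 CPM, and its log2 fold change was 0.35 ± 0.18. Bnip3l, a relative of Bnip3, was at 58.0, 58.4 and 99.0 CPM against 46.3, 51.1 and 85.8 CPM, a log2 fold change of -0.23 ± 0.32. Ndrg1, a gene induced by stress and low oxygen, was at 8.10 to 28.5 CPM and 13.0 to 20.1 CPM (-0.29 ± 0.47). P4ha2 had 7 counts in control 3, 10 counts in Ti 3 and was listed at 0 elsewhere.

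Since the libraries shared an order by number, each Ti library was also set against the control library of the same number. No label gives this pairing, which was taken from the same values, so the p-values that use it are descriptive. Ti was higher in 3 of 3 such pairs for 10 members (28.6%, against 18.3% of all genes) and lower in 3 of 3 for 5 members (14.3%, against 17.3%). Slc2a1 had the lowest p of these with pairing. Its log2 ratio was 0.65, 0.42 and 0.66 in the pairs numbered 1, 2 and 3. With the replicate number as a block in edgeR, its log2 fold change was 0.57 ± 0.08 and its unadjusted p was 0.0026, but the adjusted p was 0.361. With the block, 0 members and 0% of all genes passed an adjusted p of 0.05.

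At an unadjusted p under 0.05 the blocked fit listed 3 members as higher (5.04% of all genes were) and 3 as lower (4.32% of all genes were). The higher ones were Slc2a1, P4ha1 and Pgam1, and the lower ones were Tpi1, Pdk1 and Bnip3l. The blocked log2 fold changes were 0.27 for P4ha1, 0.29 for Pgam1, -0.27 for Tpi1, -0.36 for Pdk1 and -0.24 for Bnip3l. All 6 fold changes come from sums over all transcripts of a gene. These lists are a description of paired differences that did not pass the adjustment over all genes.

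**Figure D4:**
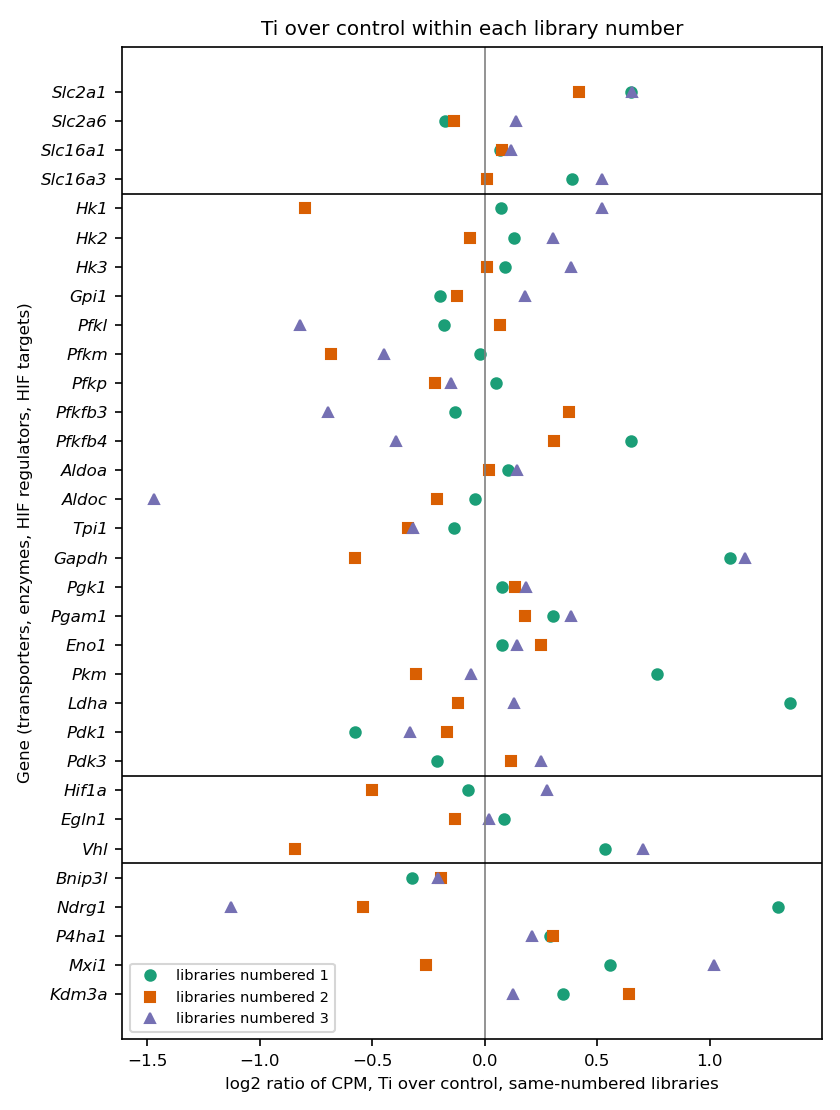
Log2 ratio of Ti over control within the pairs of libraries that share a replicate number (points), for the tested members except Ero1l, Bnip3 and Ankrd37, which were left out for their wide range. The points of Slc2a1 lie between 0.42 and 0.66, whereas those of Ldha and Vhl fall on either side of 0.

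The promoters of 4 of these genes are shown because a HIF-bound promoter is known to carry the core motif. The genes are those with an unadjusted p under 0.05 in the blocked fit and a single promoter entry. Each stretch holds 250 bases before and 50 bases after the start of the gene, read 5′ to 3′ on the gene's strand, from RefSeq on GRCm38.p6. Capitals mark ACGTG or GCGTG on either strand (CACGT or CACGC when read on the opposite one). Slc2a1 is at chr4:119108495-119108794 (plus strand), Pgam1 at chr19:41911621-41911920 (plus), P4ha1 at chr10:59323046-59323345 (plus) and Tpi1 at chr6:124814109-124814408 (minus).
Slc2a1: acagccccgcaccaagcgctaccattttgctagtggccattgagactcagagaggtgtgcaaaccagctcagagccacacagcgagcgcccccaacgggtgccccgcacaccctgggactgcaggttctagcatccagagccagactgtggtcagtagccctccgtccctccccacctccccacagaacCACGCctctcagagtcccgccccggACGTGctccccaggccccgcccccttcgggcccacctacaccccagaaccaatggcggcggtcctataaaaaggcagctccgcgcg
Pgam1: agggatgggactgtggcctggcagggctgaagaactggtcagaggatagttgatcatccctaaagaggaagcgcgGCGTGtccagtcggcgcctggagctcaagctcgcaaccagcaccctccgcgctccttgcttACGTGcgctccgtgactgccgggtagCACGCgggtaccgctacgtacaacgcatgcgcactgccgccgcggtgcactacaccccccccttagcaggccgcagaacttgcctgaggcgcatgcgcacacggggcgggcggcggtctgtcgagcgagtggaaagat
P4ha1: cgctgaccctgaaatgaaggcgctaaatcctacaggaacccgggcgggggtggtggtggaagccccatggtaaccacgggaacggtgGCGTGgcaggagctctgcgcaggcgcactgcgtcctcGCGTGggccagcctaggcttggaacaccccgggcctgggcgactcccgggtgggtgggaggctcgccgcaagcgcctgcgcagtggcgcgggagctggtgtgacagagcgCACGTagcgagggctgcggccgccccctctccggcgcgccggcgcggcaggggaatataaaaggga
Tpi1: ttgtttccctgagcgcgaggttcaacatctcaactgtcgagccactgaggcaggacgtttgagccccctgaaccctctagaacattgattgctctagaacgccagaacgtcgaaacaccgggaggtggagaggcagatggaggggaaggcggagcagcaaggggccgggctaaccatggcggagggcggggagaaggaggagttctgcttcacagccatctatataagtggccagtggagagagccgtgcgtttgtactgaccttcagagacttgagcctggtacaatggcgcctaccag

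Slc2a1 holds 2 matches, Pgam1 and P4ha1 hold 3 each, and Tpi1 holds 0. Of the 38 members, 36 matched at least 1 RefSeq promoter, and 33 of these had a match to the motif in at least 1 of them. Of 53 member promoters, 42 (79.2%) held a match, against 43.8% of all 32851 promoters and 62.1% of the 11808 promoters of genes tested. Since both motifs contain a CpG, the share rises with the CpG number. Members had a median of 22 CpG per promoter, all promoters 7 and those of tested genes 20. Among promoters with 20 or more CpG, 29 of 33 member promoters and 73.6% of all promoters held a match. A match gives the letters only and says nothing about binding.

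Pkm makes 2 enzymes, M1 and M2, by using 1 of 2 mutually exclusive exons, and M2 is the form known from proliferating and activated cells. Both exons are printed because they hold the difference between the M1 and M2 coding sequences. The transcripts compared also differ in untranslated sequence, with 2432 exonic bases in Pkm-201 and 2041 in Pkm-202. They are read 5′ to 3′ on the plus strand from GENCODE vM21 on GRCm38, and capitals mark the bases that differ between them. The M2 exon lies at chr9:59675568-59675734 in Pkm-201 and the M1 exon at chr9:59675029-59675195 in Pkm-202.
M2: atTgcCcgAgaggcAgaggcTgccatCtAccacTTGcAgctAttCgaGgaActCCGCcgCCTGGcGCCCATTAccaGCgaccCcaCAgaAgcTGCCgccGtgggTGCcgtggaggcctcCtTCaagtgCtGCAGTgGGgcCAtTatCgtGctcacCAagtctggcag
M1: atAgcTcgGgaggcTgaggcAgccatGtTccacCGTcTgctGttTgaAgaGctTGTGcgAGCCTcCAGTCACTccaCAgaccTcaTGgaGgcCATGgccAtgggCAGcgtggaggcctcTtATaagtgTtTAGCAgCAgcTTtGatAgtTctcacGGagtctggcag

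Each exon has 167 bases, and 64 of them differ, which leaves 61.7% identity. Per length, Pkm-201 (M2) made up 95%, 92.6% and 82.8% of the sum of both forms in control libraries 1 to 3. In Ti libraries 1 to 3 it made up 83.3%, 94.0% and 89.3%. The mean was 90.1% ± 6.45 (SD, n = 3) in the control group and 88.9% ± 5.37 (SD, n = 3) in the Ti group. The groups overlapped fully, and the exact two-sided permutation test gave p = 0.8, where 0.1 is the smallest p that 3 against 3 libraries allow. M2 was the main form in every library.

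Below the level of genes, the members have 304 annotated transcripts, of which 143 were tested. EdgeR called 0 of them, against 0.00721% of all 41599 transcripts tested, with a lowest adjusted p of 0.142. At an unadjusted p under 0.05, 3 were listed (4.29% of all transcripts were), namely Pgam1-203, Mxi1-209 and Pkm-210. DESeq2 called 2 of the member transcripts, Pgam1-203 and Mxi1-209, and 0.971% of all. Pgam1-203, a processed transcript without a coding frame, had 131, 84 and 134 counts in the control libraries and was listed at 0 in all 3 Ti libraries. With a floor of 3 counts per library its estimate was at least 35.6-fold lower in the Ti group. A listed 0 can be a failed assignment, so this describes the estimates. In the whole table, 49 transcripts had 3 counts or fewer in every library of a group and at least 50 in every library of the other. Mxi1-209 was at 2.84, 1.62 and 1.93 CPM in the control libraries and at 0.539, 0.689 and 0.913 CPM in the Ti libraries.

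Several gene values were put together from different transcripts in libraries of the same group. Of 75 member transcripts that reached 10 CPM in any library, 14 (18.7%) had 3 counts or fewer in another library of the same group, compared with 7% of 12977 such transcripts in the whole table. These 14 came from 10 genes. Ldha-201 was at 0, 565 and 312 CPM in the control libraries and at 823, 914 and 1264 CPM in the Ti libraries. Ldha-210 was at 0, 740 and 1123 CPM against 393, 223 and 309 CPM. Control 1 was the library without either, and there Ldha-202 was listed at 311 CPM and at 1.45 to 4.23 CPM in the other 5.

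Slc16a3-201 was at 213, 207 and 0.481 CPM in the control libraries and at 275, 0 and 480 CPM in the Ti libraries. In the 2 libraries that lacked it, control 3 and Ti 2, Slc16a3-208 was at 266 and 153 CPM. Ero1l-201 was listed at 0 in the 3 libraries with a low Ero1l value and carried nearly all of the value in the others. A value of 0 in these estimates can be a failed assignment, so such differences within a group describe the estimates.

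**Figure D5:**
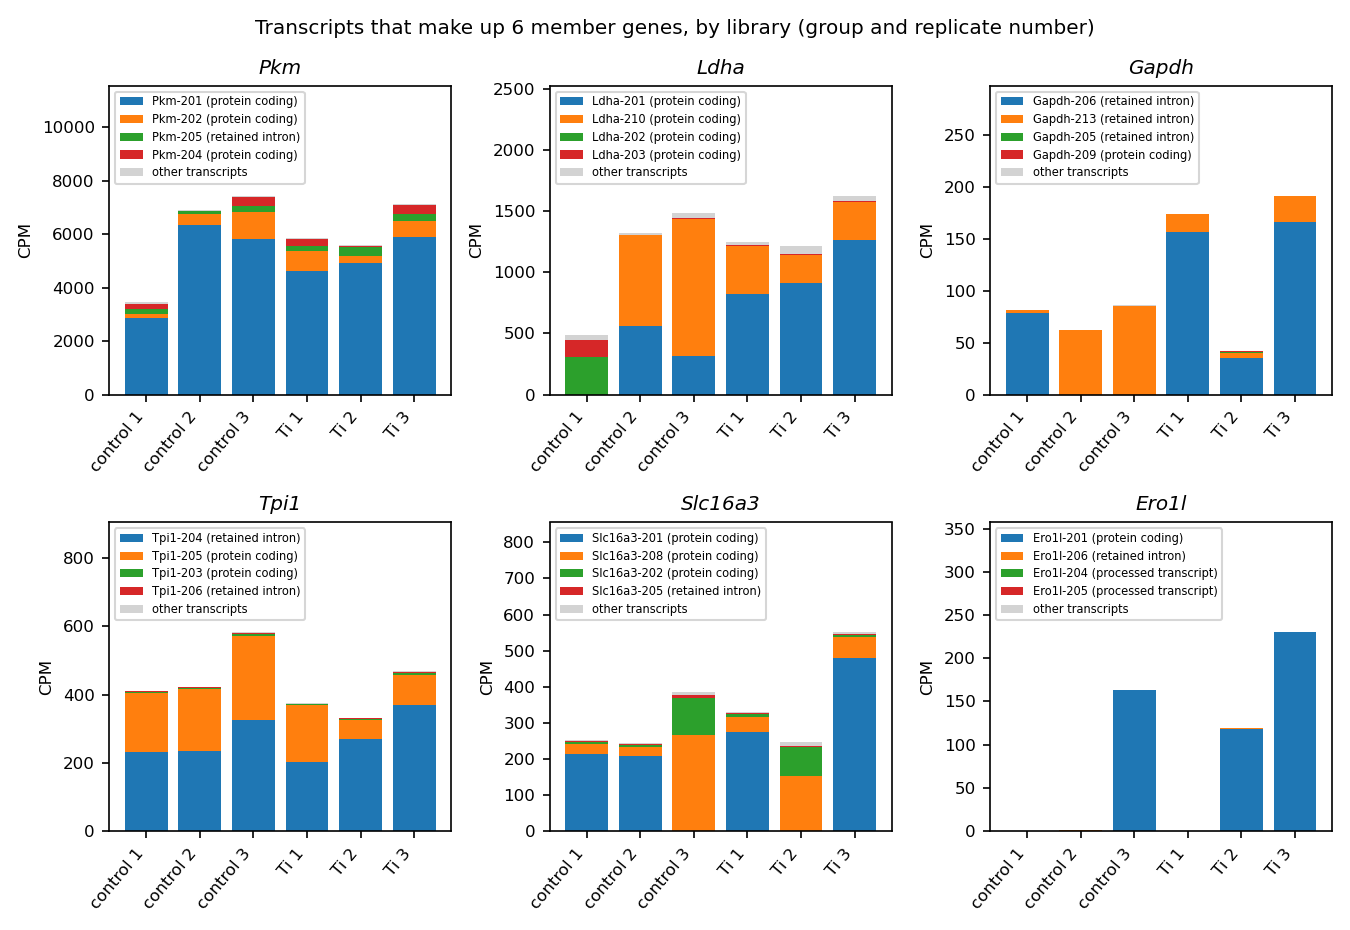
Level (CPM) of the leading transcripts of selected members in each library, stacked within each gene. The make-up of the Ldha bar in control 1 and of the Slc16a3 bars in control 3 and Ti 2 differs from that in the other libraries of their group, while the Pkm bars are mostly Pkm-201 throughout.

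Gapdh, the dehydrogenase often used as a reference gene, could not be read as messenger RNA. Its gene value was 82.0, 62.8 and 86.1 CPM in the control libraries and 174, 42.0 and 192 CPM in the Ti libraries, a log2 fold change of 0.82 ± 0.54. Of this, 98.5% to 99.96% came from transcripts annotated as retained introns, mainly Gapdh-206 and Gapdh-213. The 6 coding transcripts together were at 0.0459 to 0.691 CPM, and with coding transcripts alone the log2 fold change was -0.06. Tpi1 showed a milder form of this. Coding transcripts held 42.7% to 45.4% of its value in the control libraries and Ti 1, but 17.9% in Ti 2 and 20.4% in Ti 3. The coding Tpi1-205 was at 172, 182 and 247 CPM in the control libraries and at 167, 55.1 and 89.1 CPM in the Ti libraries, and edgeR did not call it (unadjusted p 0.0605).

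Genes of neighbouring pathways were read from lists that hold no member. Among 30 further HIF targets, 26 were tested, 19 with a positive and 7 with a negative fold change, and the median was 0.10. EdgeR called 0 of them, 3 had an unadjusted p under 0.05 by edgeR, and DESeq2 called 2, among them Nos2. Of all genes tested, 6.76% had such a p, DESeq2 called 1.9%, and 50.9% had a positive fold change. Nos2, the inducible nitric oxide synthase, had a log2 fold change of 3.90, at an adjusted p of 0.134 by edgeR. Hmox1, heme oxygenase, had 0.62 ± 0.20, at an adjusted p of 0.614 by edgeR. Of 9 further components of the HIF pathway, 7 were tested, with a median of 0.03 and 0 calls. EdgeR listed 0 of the 7 at an unadjusted p under 0.05.

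Of 22 other isoforms of glycolysis, 13 were tested, with 6 positive and 7 negative fold changes and a median of -0.06. EdgeR called 0 of them and DESeq2 0, and 3 had an unadjusted p under 0.05 by edgeR. Of all genes tested, 6.76% had such a p and 50.9% had a positive fold change. Slc2a9, a carrier of urate and hexoses, was at 15.9, 17.7 and 13.2 CPM in the control libraries and at 9.38, 9.56 and 5.26 CPM in the Ti libraries. All Ti libraries were below all control libraries, and the log2 fold change was -0.95 ± 0.28, at an adjusted p of 0.536 by edgeR. Slc16a6 went the other way, with all Ti libraries above all control libraries. Its log2 fold change was 0.99 ± 0.35, at an adjusted p of 0.657 by edgeR. Eno3 was wholly lower in the Ti group, with -0.49 ± 0.19 and an adjusted p of 0.694 by edgeR.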

How the data were processed

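Total RNA of RAW264.7 cells was sequenced in 6 libraries, 3 control and 3 Ti. The authors deposited whole-number estimated counts per transcript in 187351 rows, made with HISAT2 and StringTie and the build mm9, per the submitters' processing notes. Tool versions and the counting step: not given in the sources used here. In all, 141862 rows match GENCODE vM21 (GRCm38), from which names and coordinates were taken. The other 45489 are assembled transcripts without a gene and held 36.9% to 51.2% of the deposited totals.

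Deposited totals were 456595115 to 773215120 per library and low values rose with genomic span (slope 1.02 on log scales). Values were scaled by the ratio of exon length to genomic span and added up for each gene, then rounded. Among coding transcripts, the scaling lowered another slope, that of the mean value on genomic span, from 0.972 to 0.336, so the correction is partial. A second gene named Aldoa, a readthrough locus, was left out.

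Genes were filtered with filterByExpr, scaled by TMM and tested with edgeR 4.0.16 (quasi-likelihood, Benjamini-Hochberg over all genes tested, threshold 0.05) in R 4.3.3. Alternatives used DESeq2 1.42.0, limma 3.58.1, other filters and scalings, and a replicate block. CPM use TMM-scaled library sizes. Ratios of single libraries add 0.05 CPM. Scripts were tested on simulated data. In 3 simulated runs, edgeR recovered 2.68% of genes changed 2-fold and 42.8% of those changed 4-fold, and 11.5% of its calls were false. edgeR's quasi-likelihood fit gives no SE, so SEs were derived as the absolute log2 fold change divided by the square root of its F statistic. They hold the spread between libraries, whereas floors cover counting error only.

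Deviations from the group means correlated between same-numbered libraries (0.11, 0.14 and 0.27 for numbers 1, 2 and 3). For all other pairs the correlation lay between -0.17 and 0.04, so the numbers were taken to pair the libraries. No label says what a number marks. The blocked fit thus used a pairing taken from the same values. The members and lists were chosen with earlier results of these data known. The plan gave in full Hif1a, Slc2a1, Hk2, Pkm, Ldha and Gapdh in any case. It added members with separated groups or an unadjusted p under 0.05. The other members are also given with their levels and fold changes. Of each further list the 3 genes with the smallest p could be named. Vegfa, Adm, Tfrc, Angptl4 and Eno1b were named outside this rule. A gene of the list of further HIF targets is counted there but not reported here by itself.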

Additional observations from a re-analysis of the deposited data

How the results depend on the processing

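Under 16 alternatives, 0 of 35 members were called, and the lowest adjusted p was 0.229. Of 559 fold changes of members recomputed, 501 kept their direction and 58 turned, and 12 members never turned. Ankrd37 was filtered out with coding transcripts alone. Transcripts were not recounted in the 2 alternatives that change which transcripts are summed. The count of member transcripts called was 0 by edgeR and 2 by DESeq2. With the replicate block, which pairs libraries by number, Slc2a6 turned to -0.058 and Hk1 to -0.065, and the block changed no call. By voom with quality weights the values were -0.037 for Slc2a6, -0.11 for Hk1, -0.016 for Pdk3, 0.022 for Egln1 and 0.20 for Ndrg1. Without both libraries numbered 3 they were -0.15 for Slc2a6, -0.34 for Hk1, 0.18 for Pfkfb3, -0.049 for Pdk3, -0.16 for Vhl, 0.18 for Ndrg1 and 0.078 for Ankrd37. With coding transcripts alone they were -0.037 for Slc2a6, 0.21 for Pfkfb3, -0.062 for Gapdh and 0.013 for Egln1. Values as deposited gave -0.012 for Pfkfb4. Egln1 was at 0.00033 with a mean of at least 50 counts, 0.00058 with DESeq2 size factors and 0.00080 by DESeq2.

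Leaving out each library in turn gave these ranges for the members that turned: Aldoa -0.046 to 0.21, Aldoc -0.68 to 0.23, Ankrd37 -1.99 to 1.06, Bnip3l -0.56 to 0.074, Egln1 -0.22 to 0.20, Eno1 -0.021 to 0.35, Gpi1 -0.24 to 0.076, Hif1a -0.31 to 0.029. For the others the ranges were Hk1 -0.39 to 0.29, Hk2 -0.060 to 0.27, Hk3 -0.25 to 0.52, Ldha -0.044 to 0.60, Ndrg1 -0.67 to 0.034, Pdk3 -0.0072 to 0.13, Pfkfb3 -0.41 to 0.16. The last were Pfkfb4 -0.15 to 0.60, Pfkp -0.36 to 0.17, Pgk1 -0.090 to 0.34, Pkm -0.21 to 0.26, Slc16a3 -0.024 to 0.60, Slc2a6 -0.70 to 0.55 and Vhl -0.12 to 0.41. The medians ranged from -0.07 to 0.19 for enzymes, 0.05 to 0.58 for transporters, -0.22 to 0.14 for HIF regulators and 0.12 to 0.48 for HIF targets. The cause of these turns was not tested. With 3 libraries a group, an exact test of 1 value cannot go below 0.1, and members near or under 3 counts cannot be compared.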

Other observations

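The pentose phosphate pathway, which leaves glycolysis at glucose 6-phosphate and yields NADPH, had 7 of 7 genes tested, with 2 positive and 5 negative fold changes and a median log2 fold change of -0.07. EdgeR called 0 of the 7 and DESeq2 0, and 2 had an unadjusted p under 0.05 by edgeR. Of all genes tested, 6.76% had such a p and 50.9% had a positive fold change. The groups did not overlap in 4 of the 7 genes (3 with Ti lower and 1 with Ti higher), against 13.3% of all genes. This was also so for 3 of 11 tested genes of pyruvate entry and fate and for 5 of 13 other isoforms of glycolysis. For further HIF targets it was 4 of 26, and for further components of the HIF pathway 0 of 7. Differences between these lists were not tested. Tkt, a transketolase, was at 593, 560 and 548 CPM in the control libraries and at 470, 444 and 482 CPM in the Ti libraries. Its log2 fold change was -0.28 ± 0.08, at an adjusted p of 0.529 by edgeR, and it turned to 0.13 with coding transcripts alone. Taldo1, the transaldolase, had a log2 fold change of -0.31.

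For genes of pyruvate entry and fate, 11 of 13 were tested, 2 with a positive and 9 with a negative fold change, and the median was -0.17. EdgeR called 0 of the 11 and DESeq2 0, and 2 had an unadjusted p under 0.05 by edgeR. Of all genes tested, 6.76% had such a p and 50.9% had a positive fold change. Pdk2, a relative of Pdk1, had a log2 fold change of -1.25 ± 0.50, at an adjusted p of 0.731 by edgeR. Its levels were low, at 0.969, 0.449 and 0.815 CPM in the control libraries and at 0.494, 0.188 and 0.250 CPM in the Ti libraries, and the groups overlapped. Pcx, pyruvate carboxylase, had a log2 fold change of -0.30 and Me1, a malic enzyme, had 0.24.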
